A study of Mus musculus with 2 samples.

Results

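The genes described here encode the proteins that fold, modify, export, trim and crosslink collagen, and they were chosen as a fixed list of 35 symbols. All 35 were found by symbol in the deposited table of 21983 genes. The RNA came from primary mouse chondrocytes, the cells that make cartilage, of wild-type (WT) genotype. The treated library was from cells given recombinant mouse Sparcl1 protein, a secreted matricellular protein of the SPARC family, at 50 ng/ml for 3 days. The control library was from cells given PBS for 3 days, and both were kept in medium with serum. There was 1 library per group, so no spread between cultures could be estimated, and no test across libraries or p-value is given. No source used here gives the number, age or strain of the animals, or says whether the libraries came from separate cultures.

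Collagen chains are made in the endoplasmic reticulum (ER), where prolyl and lysyl residues are hydroxylated, some hydroxylysines are glycosylated, and chaperones keep the chains soluble until the triple helix has formed. Large COPII carriers then take procollagen to the Golgi, and enzymes outside the cell cut off the propeptides so that fibrils can assemble. Lysyl oxidases finally start the covalent crosslinks that give cartilage and bone matrix its strength, and loss of many of these proteins causes brittle bone or lax connective tissue.

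The libraries held 26871933 gene counts (Sparcl1) and 29858851 gene counts (PBS). Chondrocyte markers such as Col2a1, Acan and Sox9 were all measured, 10 of 10. Their levels summed to 11129 CPM (counts of a gene for each 1000000 counts of the TMM-scaled library) with Sparcl1 and 12553 CPM with PBS. Most of each sum came from Col2a1 (7332 with Sparcl1, 8629 with PBS) and Comp (2967 with Sparcl1, 2909 with PBS). Macrophage markers, 9 of 9, summed to 2376 CPM with Sparcl1 and 2070 CPM with PBS; Lyz2 alone had 1640 with Sparcl1 and 1327 with PBS. Their median log2 ratio was -0.0017, with 3 intervals below 0 and 3 above, from Fcgr1 at -0.61 to Itgam at 0.45. Osteoblast markers, 8 of 8, summed to 205 CPM with Sparcl1 and 281 CPM with PBS, and contractile markers, 4 of 5 with at least 20 summed counts, to 795 CPM with Sparcl1 and 1212 CPM with PBS. Fibroblast markers summed to 5091 CPM with Sparcl1 and 5352 CPM with PBS. The median log2 ratio was -0.25 for chondrocyte markers, with 8 intervals below 0 and 1 above. It was -0.40 for osteoblast markers (4 below, 0 above) and -0.47 for contractile markers (3 below, 0 above). For the 5 measured fibroblast markers it was 0.02 (2 below, 2 above). Over all 13317 genes with at least 20 summed counts, 21.6% of intervals were below 0 and 20.1% above. Among the 5702 genes that reached 2000 counts in sum, as many of these markers did, 31.3% lay below 0 and 24.7% above. Endothelial markers were rare, at 5.15 CPM with Sparcl1 and 7.56 CPM with PBS, as were epithelial markers, at 2.98 CPM with Sparcl1 and 3.56 CPM with PBS, and the epithelial keratin genes Krt8 and Krt18 had 0 counts in both libraries. Markers of macrophages were thus present in both libraries beside those of chondrocytes. The part of other cells in the values below was not tested, and in such bulk libraries fewer cells of a type and less RNA per cell cannot be told apart.

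Collagen biosynthesis genes differed little between the libraries. No member was 2-fold higher or lower with Sparcl1, where a call asked for at least 20 summed counts and a 95% counting interval that excluded 0; among 13317 genes with that many counts, 0.954% were called higher and 0.946% lower. At 1.5-fold there was again no member in either direction, against 2.32% and 2.35% of all genes. Of the 34 members with at least 20 summed counts, 21 had ratios below 1 and 13 above 1, or 15 below 1 and 19 above 1 with total counts as library sizes. With the trend of ratios over GC content removed, 23 were below 1 and 11 above 1. With trends over GC content and exon length removed, 26 were below 1 and 8 above 1. Both trend steps were chosen after seeing the data. Of all 13317 genes, 6709 were below 1 and 6608 above 1 on the TMM scale. The members' median log2 ratio, Sparcl1 over PBS, was -0.03, beside -0.0019 over all 13317 genes.

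Among the 32 members with at least 2000 summed counts, 13 had an interval wholly below 0 and 6 wholly above 0. Among all 5702 genes with as many counts the shares were 31.3% below and 24.7% above, close to the members' 40.6% and 18.8%, and nothing particular to the members is read from them. Over all 13317 genes with at least 20 summed counts the shares were 21.6% below and 20.1% above. With total counts as library sizes, 12 members were below and 10 above. These intervals treat reads as independent, hold counting error only and compare 2 libraries, not the conditions. The central 95% of log2 ratios of those 5702 genes ran from -0.33 to 0.32, and none of the 32 members lay outside it. The middle 50% ran from -0.11 to 0.08 and held 16 of the 32. No difference between roles could be tested with 1 library per group.

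**Figure D1:**
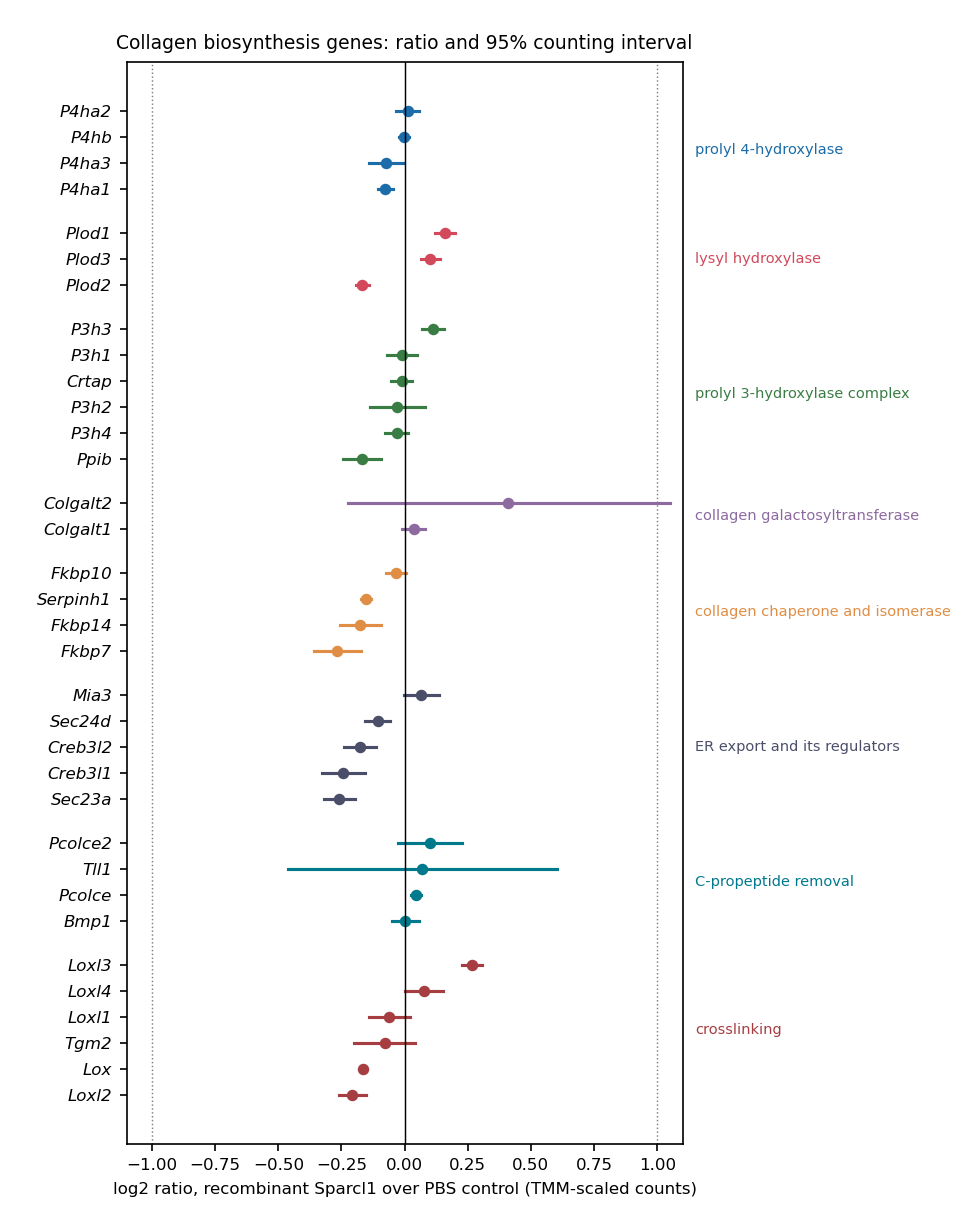
Log2 ratio of each measured collagen biosynthesis gene, recombinant Sparcl1 over PBS control, with its 95% counting interval (1 library each), grouped by role; dotted lines mark a 2-fold difference. All members with at least 2000 summed counts lie between -0.27 (Fkbp7) and 0.27 (Loxl3), while the wide intervals belong to the rare genes Colgalt2 and Tll1.

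**Figure D2:**
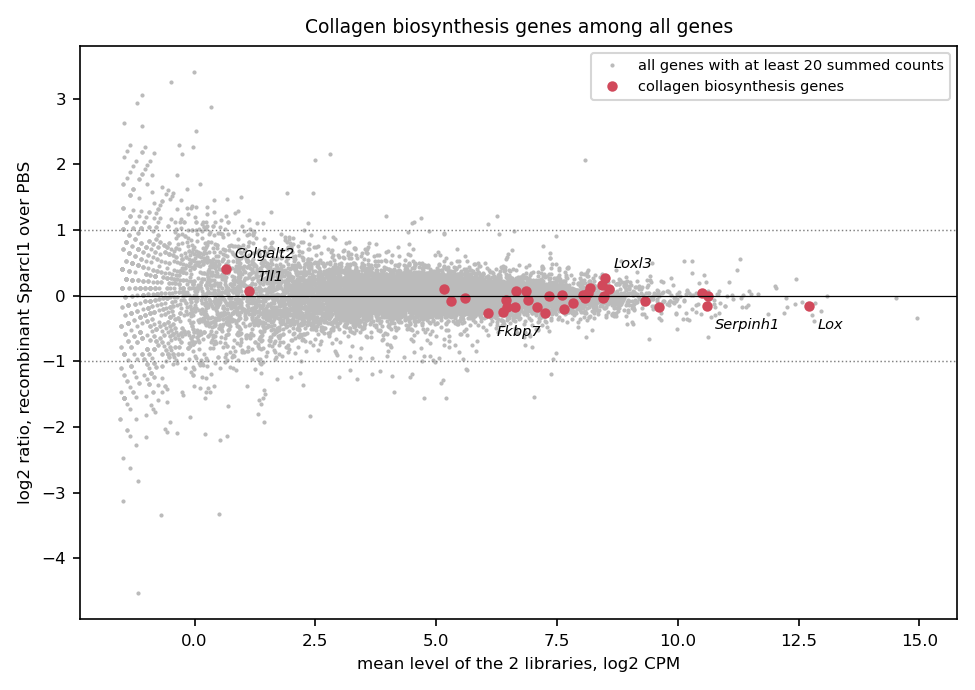
Log2 ratio, recombinant Sparcl1 over PBS, against mean level in log2 CPM for every gene with at least 20 summed counts (grey) and the 34 collagen biosynthesis genes among them (red); dotted lines mark a 2-fold difference. The red points lie inside the grey cloud at all levels.

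Levels differed far more between the members than between the libraries. Per kilobase of merged exons, Lox, the main lysyl oxidase, stood highest at 1336 CPM per kilobase with Sparcl1 and 1498 with PBS, and it was the gene with the eighth most counts of the whole table. The collagen chaperone gene Serpinh1 followed at 602 CPM per kilobase with Sparcl1 and 669 with PBS, then P4hb at 555 with Sparcl1 and 556 with PBS, and Pcolce at 387 with Sparcl1 and 376 with PBS. The 13 highest members were in the same order in both libraries, and the largest move farther down was by 3 places (Fkbp7, rank 17 with Sparcl1 and 14 with PBS). At the low end, Colgalt2 and Tll1 were below 1 CPM per kilobase in both libraries. Tll2 had 0 counts in both, which with a limit of 3 counts allows up to 0.110 CPM with Sparcl1 and 0.102 CPM with PBS. As shares of the unscaled counts, the 35 genes together took 1.74% of the Sparcl1 library and 1.80% of the PBS library. Without Lox the unscaled shares were 1.09% in both. Lox took 0.646% of the Sparcl1 counts (exact binomial interval 0.643% to 0.649%) and 0.707% of the PBS counts (0.704% to 0.710%). On the TMM scale other members differed too, in both directions. Serpinh1 had 1470 CPM with Sparcl1 and 1635 with PBS, and Loxl3 had 394 with Sparcl1 and 328 with PBS. Of the 34 measured members, 21 had ratios below 1 and 13 above 1, beside 6709 and 6608 of all 13317 genes.

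**Figure D3:**
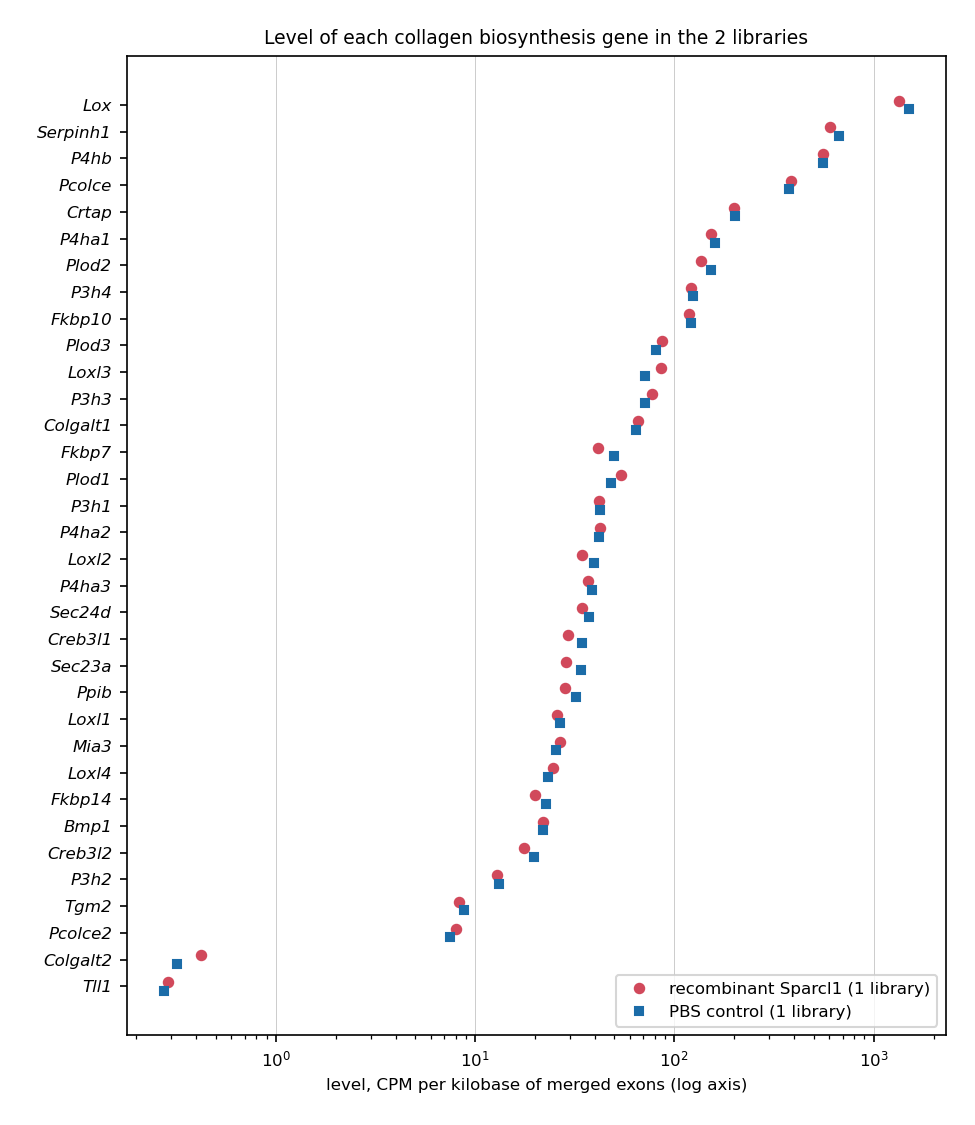
Level of each of the 34 detected members in CPM per kilobase of merged exons on a log axis, in the recombinant Sparcl1 library (red circles) and the PBS library (blue squares). Lox is highest at 1336 CPM per kilobase with Sparcl1 and 1498 with PBS, and the gap between libraries is small beside the gap between genes.

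Prolyl 4-hydroxylase makes the 4-hydroxyproline that keeps the triple helix stable at body temperature, and consists of catalytic alpha subunits joined to protein disulfide isomerase, the product of P4hb. P4hb had 43180 counts with Sparcl1 and 46940 with PBS, a log2 ratio of -0.0033 (95% counting interval -0.02 to 0.02), or -0.06 with the GC trend subtracted, that is, the median ratio of genes of like GC content (a step chosen after seeing the data). The main alpha subunit gene P4ha1 had 17027 counts with Sparcl1 and 19484 with PBS (-0.08, -0.11 to -0.05), or -0.03 after that step. P4ha2 had 7165 counts with Sparcl1 and 7710 with PBS (0.01). P4ha3 had 3152 counts with Sparcl1 and 3597 with PBS (-0.07, -0.14 to -0.0040). The balance of the subunits was nearly the same in both libraries. P4ha1 made up 65.8% of the summed alpha subunit level per kilobase with Sparcl1 and 66.5% with PBS. The P4hb level was 2.40 times the summed alpha level with Sparcl1 and 2.30 times with PBS; protein disulfide isomerase also has work outside this enzyme.

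Prolyl 3-hydroxylation of a few residues is carried out by a complex of prolyl 3-hydroxylase 1 (P3h1), the cartilage-associated protein (Crtap) and cyclophilin B (Ppib), which also acts as a prolyl isomerase and chaperone. P3h1 had 4397 counts with Sparcl1 and 4801 with PBS, a log2 ratio of -0.0097, and Crtap had 9661 counts with Sparcl1 and 10566 with PBS (-0.01). With the GC trend subtracted they stood at -0.08 and -0.09, below their intervals. Ppib lay below them, with 2554 counts with Sparcl1 and 3116 with PBS (-0.17, -0.25 to -0.09). The Ppib values are uncertain, since 25.0% of its merged exons overlap Snx22 on the opposite strand and the counting may not have kept strand. The related enzyme gene P3h2 was at -0.03, from 1304 counts with Sparcl1 and 1443 with PBS, and 28.4% of its merged exons overlap an antisense gene. P3h3, a further family member, was the only one of the 6 with an interval above 0, with 8226 counts with Sparcl1 and 8249 with PBS (0.11, 0.07 to 0.16), which became 0.0072 with the GC trend subtracted. P3h4, whose product is needed for lysyl hydroxylation in mouse skin, had 7231 counts with Sparcl1 and 8013 with PBS (-0.03), or -0.13 with the GC trend subtracted. In the GENCODE M21 annotation of GRCm38 (mm10), P3h4 (chr11:100408456-100414836, minus strand) and Fkbp10 (chr11:100415697-100424824, plus strand) lie 860 bases apart and point away from each other, and their log2 ratios were both -0.03 before the GC trend was subtracted.

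The 3 lysyl hydroxylase genes did not move together. Plod2, whose product hydroxylates lysines of the telopeptides and so sets which crosslinks form, had 20091 counts with Sparcl1 and 24462 with PBS (log2 -0.17, -0.19 to -0.14). Plod1, which acts on lysines in the helix, had 9946 counts with Sparcl1 and 9662 with PBS (0.16, 0.12 to 0.20). Plod3, which can also add sugars to hydroxylysine, had 10727 counts with Sparcl1 and 10843 with PBS (0.10, 0.06 to 0.14). The Plod2 ratio was thus below 1 and those of Plod1 and Plod3 above 1, each by more than counting error. With the GC trend subtracted, Plod2 stood at -0.10, Plod1 at 0.12 and Plod3 at 0.02, the last below its interval. Plod2 made up 49.2% of the summed level per kilobase of the 3 genes with Sparcl1 and 54.2% with PBS. Of the galactosyltransferases that glycosylate hydroxylysine, Colgalt1 had 7776 counts with Sparcl1 and 8230 with PBS (0.04, -0.0096 to 0.08). Colgalt2 had only 49 counts with Sparcl1 and 40 with PBS (0.41, -0.22 to 1.05), so its ratio is not fixed by these reads. Exons of Plod3 overlap Znhit1 and those of Colgalt1 overlap Unc13a on the opposite strand, over 11.7% and 11.4% of their length.

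The 4 collagen chaperones and isomerases were all at ratios below 1, except that Fkbp10 turned to 0.0016 with total counts as library sizes. Serpinh1 (chr7:99345376-99353239, minus strand) encodes HSP47, the chaperone that binds the procollagen triple helix in the ER. It had 39982 counts with Sparcl1 and 48243 with PBS, or 1.11-fold lower with Sparcl1 (log2 -0.15, -0.17 to -0.13). The ER prolyl isomerase gene Fkbp7 had 1673 counts with Sparcl1 and 2182 with PBS and was the lowest of all members (-0.27, -0.36 to -0.17), 1.20-fold lower. Of the 5702 genes with at least 2000 summed counts, 4.59% had a lower ratio than Fkbp7. Fkbp14, whose product binds type III collagen among others, had 2266 counts with Sparcl1 and 2775 with PBS (-0.18, -0.26 to -0.09). Fkbp10, whose product FKBP65 supports telopeptide lysyl hydroxylation, had 9464 counts with Sparcl1 and 10504 with PBS (-0.03, -0.07 to 0.0070). The intervals of Serpinh1, Fkbp14 and Fkbp7 lay below 0 and that of Fkbp10 included 0. With the GC trend subtracted Fkbp10 stood at -0.11, below its interval.

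Of 3 ER export genes 2 had an interval below 0, as had 2 transcription factor genes that regulate this step, beside 31.3% of all genes with at least 2000 summed counts. Sec23a and Sec24d encode subunits of the inner COPII coat that are needed to carry procollagen, and loss of either disturbs cartilage and skull formation in vertebrates. Sec23a had 3753 counts with Sparcl1 and 4872 with PBS (-0.26, -0.32 to -0.20). Sec24d had 5958 counts with Sparcl1 and 6960 with PBS (-0.11, -0.16 to -0.06). Mia3 encodes TANGO1, the ER exit site receptor that loads procollagen into carriers. It had 3222 counts with Sparcl1 and 3338 with PBS (0.07, -0.0042 to 0.14), and 0.12 with the GC trend subtracted.

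Creb3l1 (OASIS) and Creb3l2 (BBF2H7) encode ER membrane-bound transcription factors that are cut free and enter the nucleus. In mice Creb3l2 drives Sec23a in chondrocytes, and Creb3l1 drives Col1a1 in osteoblasts. Creb3l1 had 2072 counts with Sparcl1 and 2658 with PBS (-0.24, -0.33 to -0.16), and Creb3l2 had 3473 counts with Sparcl1 and 4258 with PBS (-0.18, -0.24 to -0.11). Both factor genes had ratios below 1. Of the known targets, Sec23a stood at -0.26, or -0.17 with the GC trend subtracted. Col1a1 stood at -0.38 (171600 counts with Sparcl1 and 242065 with PBS), and 9 of 11 fibrillar chain genes had an interval below 0. Whether the factors had a part in the ratios of these targets was not tested.

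The 250 bases before the RefSeq start of transcription are printed for 5 members, so that promoter sequence can be read beside the ratios: the 3 lowest members that have 1 promoter entry (Fkbp7, Sec23a and Creb3l2), the highest such member with at least 2000 summed counts (Plod1) and the collagen-specific chaperone Serpinh1. RefSeq promoter entries on GRCm38.p6 matched 23 of the 35 members, 20 of them with 1 entry. The windows are chr2:76673099-76673348 for Fkbp7, chr12:59012018-59012267 for Sec23a, chr6:37442149-37442398 for Creb3l2, chr7:99353240-99353489 for Serpinh1 and chr4:147936777-147937026 for Plod1, all on the minus strand and written 5′ to 3′ along the gene. Capitals mark matches on either strand to TGACGT, the core bound by CREB family factors, and ACGTG, 1 form of the hypoxia response element core. They also mark GGGCGG, the GC box, and CCAAT, on either strand. Other forms of the hypoxia core were not searched for and are not marked, so an unmarked window may still hold them. Matches to the CREB and hypoxia cores share letters and can overlap.
Fkbp7: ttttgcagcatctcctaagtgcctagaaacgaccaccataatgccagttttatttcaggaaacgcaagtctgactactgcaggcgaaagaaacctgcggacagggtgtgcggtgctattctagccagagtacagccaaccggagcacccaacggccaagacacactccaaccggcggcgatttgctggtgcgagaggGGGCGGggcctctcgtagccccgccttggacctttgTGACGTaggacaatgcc
Sec23a: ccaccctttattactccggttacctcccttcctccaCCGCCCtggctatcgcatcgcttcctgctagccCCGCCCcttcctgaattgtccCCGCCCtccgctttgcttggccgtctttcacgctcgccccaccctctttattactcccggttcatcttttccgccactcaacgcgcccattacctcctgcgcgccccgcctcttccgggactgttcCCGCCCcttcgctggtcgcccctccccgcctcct
Creb3l2: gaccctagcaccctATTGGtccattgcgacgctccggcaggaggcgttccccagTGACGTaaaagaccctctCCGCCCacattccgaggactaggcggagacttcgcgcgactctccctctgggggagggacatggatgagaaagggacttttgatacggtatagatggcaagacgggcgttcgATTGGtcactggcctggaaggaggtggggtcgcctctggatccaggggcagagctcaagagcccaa
Serpinh1: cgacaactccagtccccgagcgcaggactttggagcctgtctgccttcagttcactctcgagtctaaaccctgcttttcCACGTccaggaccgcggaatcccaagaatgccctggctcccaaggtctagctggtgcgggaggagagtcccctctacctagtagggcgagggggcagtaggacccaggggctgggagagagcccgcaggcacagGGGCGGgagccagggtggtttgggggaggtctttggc
Plod1: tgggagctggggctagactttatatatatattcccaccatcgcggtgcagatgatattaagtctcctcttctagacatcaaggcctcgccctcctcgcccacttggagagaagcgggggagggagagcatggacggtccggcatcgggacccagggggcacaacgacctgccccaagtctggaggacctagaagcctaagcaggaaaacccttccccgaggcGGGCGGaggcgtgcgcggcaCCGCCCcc
Fkbp7 and Creb3l2 each had 1 match to TGACGT, and Sec23a, Serpinh1 and Plod1 had none in these windows. Of all 32851 RefSeq promoter windows of this length, 6.47% held TGACGT, as did 4 of the 20 member promoters. ACGTG was found in 16.6% of all windows and in 8 of the 20, with 1 match in Serpinh1. These counts leave out other forms of the hypoxia core. GGGCGG was found in 32.7% and in 16 of the 20, with 4 matches in Sec23a, 2 in Plod1 and 1 each in Fkbp7, Creb3l2 and Serpinh1. CCAAT was found in 33.8% and in 8 of the 20, with 2 matches in Creb3l2. The 32851 windows were taken without regard to expression or to the number of entries per gene. The 20 belong to members with 1 entry each. The sets are thus unlike, and no enrichment is read from these shares. A match is a run of letters and not a bound site.

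Removal of the C-propeptide, which lets collagen assemble into fibrils, is carried out by bone morphogenetic protein 1 and its tolloid relatives and sped up by the procollagen C-proteinase enhancers. Bmp1 had 5283 counts with Sparcl1 and 5718 with PBS (log2 0.0030, -0.05 to 0.06). The enhancer gene Pcolce had 40272 counts with Sparcl1 and 42374 with PBS (0.04, 0.02 to 0.06), and Pcolce2 had 1014 counts with Sparcl1 and 1025 with PBS (0.10, -0.03 to 0.23). None of the 4 measured genes of this step had a ratio below 1, except Bmp1 with upper-quartile factors (-0.00040) and, with trends removed, Bmp1 and Pcolce. Pcolce made up 98.0% of the summed level of the enhancer genes in both libraries, and Bmp1 98.7% with Sparcl1 and 98.8% with PBS of its family. The tolloid gene Tll1 had 61 counts with Sparcl1 and 63 with PBS (0.07, -0.46 to 0.60), too few to place it.

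The crosslinking genes held both the most abundant member and the highest ratio among well-measured ones. Lox had 173687 counts with Sparcl1 and 211161 with PBS, 1.12-fold lower with Sparcl1 (log2 -0.165, -0.174 to -0.156). Loxl2, which crosslinks type IV collagen in basement membranes among other substrates, had 5069 counts with Sparcl1 and 6346 with PBS (-0.21, -0.26 to -0.15). The Loxl2 value is uncertain: 44.2% of its longest transcript matches a predicted gene without a difference, and reads with several matches may have been dropped. Loxl3, whose product is needed for palate and spine formation in mice, stood against these, with 10729 counts with Sparcl1 and 9666 with PBS, 1.20-fold higher (0.27, 0.23 to 0.31). Of the 5702 abundant genes, 95.8% had a lower ratio than Loxl3. Exons of Loxl3 overlap Htra2 on the opposite strand over 11.6% of their length, and Htra2 itself had 846 counts with Sparcl1 and 736 with PBS (0.32).

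The remaining oxidase genes had small ratios that moved with the GC trend. Loxl4 had 2818 counts with Sparcl1 and 2897 with PBS (0.08, 0.0019 to 0.15), or 0.0083 with that trend subtracted. Loxl1, whose product acts mainly on elastin, had 2305 counts with Sparcl1 and 2607 with PBS (-0.06, -0.14 to 0.02), or -0.17 with the trend subtracted, lower than the -0.10 of Lox. Lox made up 88.7% of the summed level per kilobase of the 5 oxidases with Sparcl1 and 90.3% with PBS, while Loxl3 made up 5.69% with Sparcl1 and 4.29% with PBS. Tgm2, a transglutaminase that links proteins by glutamine and lysine residues, had 1046 counts with Sparcl1 and 1198 with PBS (-0.08, -0.20 to 0.04; -0.16 with the GC trend subtracted), and its exons overlap 2 other genes on the opposite strand.

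The collagen chains, the substrates of these proteins, were mostly at ratios below 1. Of 11 fibrillar chain genes 9 had an interval below 0 and 2 above, with a median log2 ratio of -0.24. None was 2-fold lower. Col2a1, the main collagen of cartilage, had 199410 counts with Sparcl1 and 254556 with PBS (-0.24), while Col24a1 was the highest at 0.42. Of 18 other chain genes 12 had an interval below 0 and 1 above (median -0.15), from Col8a2 at -0.50 to Col16a1 at 0.11 among those with at least 200 summed counts, and with the abundant Col12a1 at -0.28. In summed levels the fibrillar chains stood at 27299 CPM with Sparcl1 and 33072 CPM with PBS, a log2 ratio of -0.28, and the 35 biosynthesis genes at 17156 CPM with Sparcl1 and 18170 CPM with PBS (-0.08). Whether chains and biosynthesis genes differ in this could not be tested with 1 library per group. Serpinh1 (-0.15), Lox (-0.16) and Plod2 (-0.17) were above the fibrillar median of -0.24, Col2a1 (-0.24) and Col1a1 (-0.38). Col3a1 (-0.18), Col11a2 (-0.16) and Col5a2 (-0.15) were nearer to them. Col11a2 and Col5a2 were named after their values were seen, and Col5a2 was the least low of the 9 fibrillar chains below 0. With the GC trend subtracted, Serpinh1 stood at -0.22 and Lox and Plod2 both at -0.10.

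General parts of the same route had medians near 0, as had the 34 measured members (-0.03). Over all 13317 genes with at least 20 summed counts, 21.6% of intervals were below 0 and 20.1% above. Intervals narrow as counts rise. Among the 5702 genes that reached 2000 counts in sum, 31.3% lay below 0 and 24.7% above. Most genes of the lists in this paragraph reached that depth, so these larger shares are the nearer comparison. Of 25 other COPII and ER exit genes 8 had an interval below 0 and 2 above (median -0.06), with Sec16b at -0.28, Sec31a at -0.11 and Pef1 at 0.12. Of 18 general ER chaperones and stress genes 8 were below and 8 above (median -0.0081), from the stress factor Ddit3 at -0.38 to Creld2 at 0.26, with the abundant chaperone Calr at 0.07. None of either list was 2-fold higher or lower. P4ha1, P4ha2, Plod1, Plod2, Lox and Loxl2 are known targets of the hypoxia factor HIF-1, and stood at -0.08, 0.01, 0.16, -0.17, -0.16 and -0.21. Of 15 other HIF targets 9 had an interval above 0 and 1 below (median 0.18), with the glycolytic genes Pfkfb3 at 0.41 and Ldha at 0.20 and with Ndrg1 at -0.24. Lox is also a target of TGF-β. Of 9 measured TGF-β targets 6 had an interval below 0 and 3 above (median -0.38), from Acta2 at -0.65 to Ltbp2 at 0.49. Some of these targets are counted in other lists too, such as Acta2 among contractile markers and Col1a1 among fibrillar chains. Whether HIF-1 or TGF-β had a part in the ratios of the members was not tested.

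**Figure D4:**
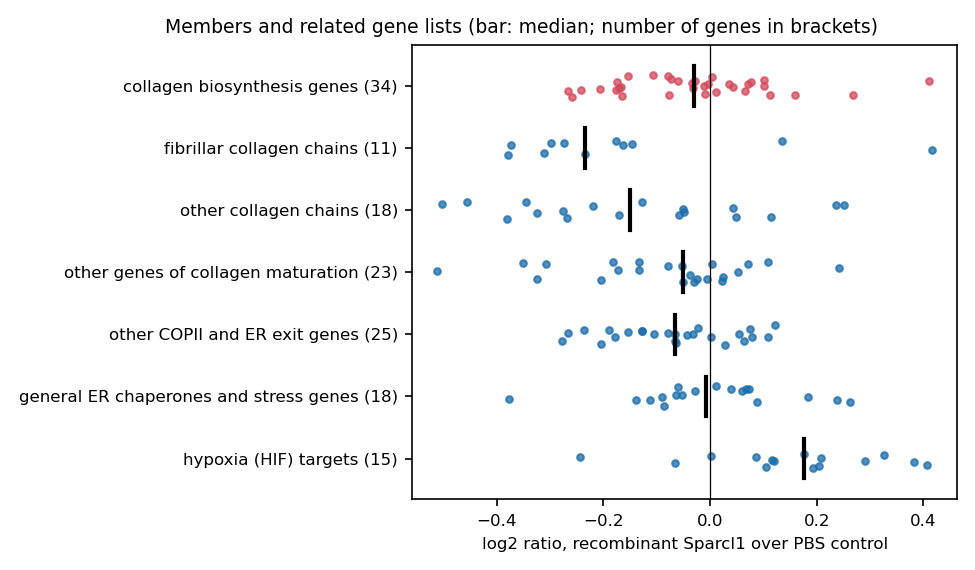
Log2 ratio, recombinant Sparcl1 over PBS control, of each gene with at least 20 summed counts in the collagen biosynthesis set (red) and in 6 related lists (blue); black bars are medians and brackets give the number of genes. The median is -0.03 for the biosynthesis genes, -0.24 for fibrillar chains and 0.18 for hypoxia targets.

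The ratios also moved with base composition. Over genes with at least 2000 summed counts, the median log2 ratio was -0.09 for the 1446 genes whose longest transcript had under 45% GC and 0.07 for the 1238 genes with at least 55%. Several of the low members are GC-poor: Fkbp7, Sec23a, Plod2, Fkbp14 and Lox had 42.0%, 42.4%, 43.0%, 43.4% and 43.9% GC. The GC trend that was subtracted came from genes with at least 200 summed counts. After that step they stood at -0.18, -0.17, -0.10, -0.11 and -0.10. Serpinh1 and Creb3l1 are GC-rich, at 56.4% and 59.5%, and stood at -0.22 and -0.34 after the same step, farther from 0 than before. Creb3l2 (-0.18) and Loxl2 (-0.23) barely moved, and Loxl3 (0.23) and Plod1 (0.12) stayed above 0. Bmp1 stood at -0.07 and Pcolce at 0.01, both outside their intervals. With the length trend removed as well, P3h3 and Pcolce no longer lay above 0, at -0.0085 and -0.0051.

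**Figure D5:**
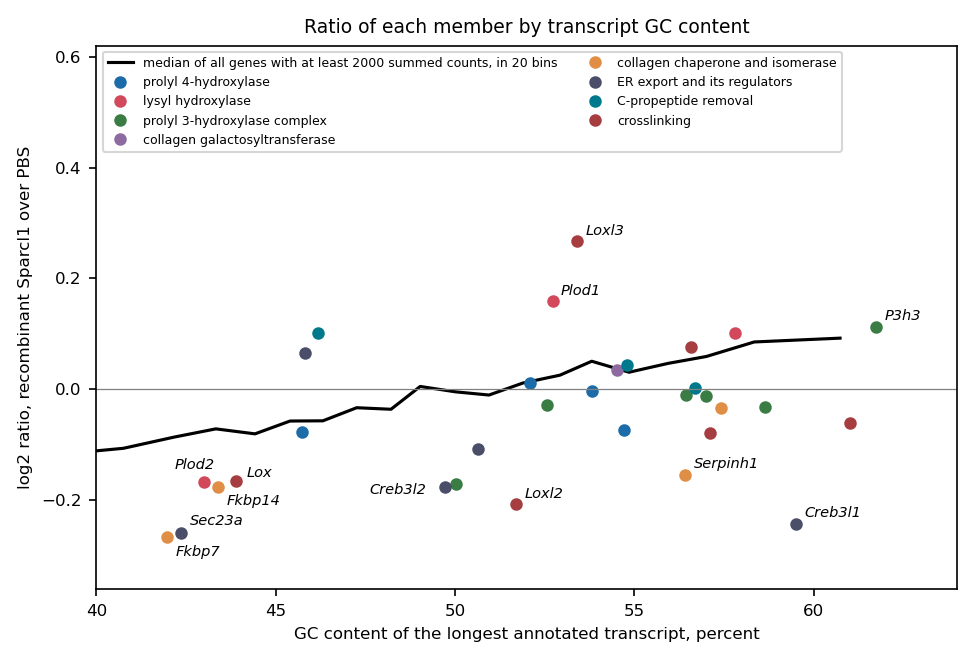
Log2 ratio, recombinant Sparcl1 over PBS, of the 32 members with at least 2000 summed counts against the GC content of their longest annotated transcript, coloured by role; the black line is the median of all genes with as many counts in 20 bins of GC. The GC-poor members Fkbp7 (-0.27) and Sec23a (-0.26) and the GC-rich Creb3l1 (-0.24) and Serpinh1 (-0.15) all lie below the line. The trend subtracted in the text came from genes with at least 200 summed counts and is not this line.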

How the data were processed

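RNA sequencing of 2 libraries, 1 from chondrocytes with recombinant Sparcl1 and 1 from chondrocytes with PBS, was used. The authors deposited whole-number counts of reads per gene symbol, 1 column per library. Per the submitters' processing notes, the build was mm10 and the tools were HTSeq, STAR, Trimmomatic and FastQC. The sources used here give no versions, annotation, strand setting or handling of reads with several matches.

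Counts were scaled with TMM factors from edgeR 4.0.16 (1.01 for Sparcl1, 0.988 for PBS; R 4.3.3). Each gene has the log2 ratio, Sparcl1 over PBS, and a 95% interval (exact, Clopper-Pearson) from the Sparcl1 library's share of its counts, computed in Python 3.11.15 with scipy 1.17.1. Intervals and limits cover counting error only, since they come from the counts of 1 library per group. PCR copies were not marked by molecular identifiers, so copied reads were counted as independent reads. A count of 0 in 1 library entered as 3 counts. Exon lengths, GC content and coordinates come from GENCODE M21 (GRCm38), matched by symbol for 99.6% of genes. Near-identical stretches (at least 100 bases at 95% identity) were searched with blastn 2.17.0. The ratio, interval and fold call were run on simulated counts that held counting error only, with total counts as library sizes. TMM scaling, trend removal and spread between cultures were not part of that simulation. Other settings tried were upper-quartile factors, size factors from DESeq2 1.42.0 and unscaled totals, other count filters and folds, a prior count of 2, and removal of GC and length trends in 20 bins. These trends were medians over genes with at least 200 summed counts.

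The members and lists were chosen with earlier results of these data known. All 35 members are accounted for; of each other list only the highest and lowest member with at least 200 summed counts and the most abundant member could be named, and not all of these are. Sparc could also be named. Overlapping genes, Sox9, Krt8, Krt18, Col11a2 and Col5a2 were named after their values were seen.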

Additional observations from a re-analysis of the deposited data

How the results depend on the processing

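No member was past 2-fold in either direction under any scaling, count filter, prior count or fold tried, 1.5-fold included. The median log2 ratio over the members was -0.03 as reported and had the other sign, 0.0049, with total counts as library sizes, which raised the median of all genes by 0.035; 6 members changed sign there, none of them with an interval off 0. Members with an interval above 0 numbered 6 as reported and 10 with total counts. Alternatives chosen after seeing the data moved the median to -0.084 with the GC trend removed and -0.097 with GC and length trends removed. Over all genes, 127 higher and 126 lower became 201 higher and 183 lower without a count filter, 20 and 38 with at least 100 summed counts, 309 and 313 at 1.5-fold, and 44 and 36 at 3-fold. The cause of these moves was not tested, apart from the filters and folds, which by construction admit more or fewer genes. No paired analysis was possible because each group has 1 library and the result comes from no test; for the same reason no library could be left out.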

Other observations

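Other genes that act on collagen or its crosslinks were spread to both sides. Of 23 measured genes of collagen maturation outside the 35, 9 had an interval below 0 and 2 above (median log2 ratio, Sparcl1 over PBS, -0.05). Periostin (Postn), a matrix protein that supports activation of lysyl oxidase through bone morphogenetic protein 1, had 22815 counts with Sparcl1 and 35273 with PBS (-0.51, 95% counting interval -0.54 to -0.49). Slc39a13, a zinc transporter whose loss impairs collagen hydroxylation, had 3789 counts with Sparcl1 and 3475 with PBS (0.24, 0.18 to 0.31). Fibronectin (Fn1) had 629977 counts with Sparcl1 and 701344 with PBS (-0.04).

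Of the other ER prolyl isomerases, Fkbp11 had 1149 counts with Sparcl1 and 1024 with PBS (0.28, 0.16 to 0.41), and Fkbp9 had 24047 counts with Sparcl1 and 27736 with PBS (-0.09, -0.11 to -0.06). Among the other transglutaminases F13a1, which encodes the catalytic part of factor XIII and is known from macrophages, had 534 counts with Sparcl1 and 492 with PBS (0.24, 0.06 to 0.41), and Tgm4 had 348 counts with Sparcl1 and 424 with PBS (-0.17, -0.38 to 0.04). Sparc, a collagen-binding relative of Sparcl1, had 116485 counts with Sparcl1 and 151054 with PBS (-0.26, -0.27 to -0.25). None of these differences has a replicate check.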
